A study of Gallus gallus with 12 samples.

Results

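The genes described here encode fatty acid desaturases and elongases. The desaturases FADS1 and FADS2 and the elongases ELOVL2 and ELOVL5 make long-chain polyunsaturated fatty acids, and the elongases ELOVL1 and ELOVL7 are grouped with them. All 6 genes were found by gene symbol, and every expression file held them among its 18332 genes. The study fed female dwarf type Xinghua chickens aged 8 weeks a high-fat diet (HFD, 25% fat) or a normal diet (ND, 5% fat) for 2 weeks, with 6 individually caged birds per diet. All birds carried the dw mutation in the growth hormone receptor gene, so the ND birds are dwarf controls and not wild-type birds. For sequencing, the study took abdominal fat and liver from 3 HFD birds chosen for a higher share of abdominal fat and from 3 ND birds chosen for a lower share, which gave 12 samples in 4 groups of 3. The effect of the diet and the effect of this choice of birds therefore cannot be told apart. Expression was given as FPKM (fragments per kilobase of transcript, scaled by the mapped fragments of the sample), which can be set side by side between genes because it is scaled by transcript length. Differences are given on the log2(FPKM + 1) scale, on which changes of weakly expressed genes appear smaller than they are, and genes were called when the adjusted p from limma was 0.05 or lower, with Benjamini-Hochberg adjustment over all genes tested.

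Polyunsaturated fatty acids of the omega-6 and omega-3 families start from linoleic and alpha-linolenic acid, which animals take from the diet. In vertebrates, FADS2 inserts the first new double bond, ELOVL5 lengthens the product, FADS1 inserts the next double bond to give arachidonic and eicosapentaenoic acid, and ELOVL2 lengthens these further on the way to docosahexaenoic acid. In mammals, ELOVL1 acts mainly on saturated and monounsaturated very long chains and ELOVL7 on long-chain acyl-CoAs. Liver is the main site of fatty acid synthesis in birds, whereas avian abdominal fat mainly stores lipid that the liver exports. In the RefSeq gene table of the assembly bGalGal1.mat.broiler.GRCg7b, which matched all 6 genes by identifier, FADS1 (gene 423120) and FADS2 (gene 423122) are direct neighbours. The others are ELOVL1 (gene 424564), ELOVL2 (gene 420858), ELOVL5 (gene 428646) and ELOVL7 (gene 431579).

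The tissue labels were checked against marker genes, and 1 library stood apart. The FPKM of 8 adipocyte markers summed to between 13906 and 16963 in abdominal fat and to between 245 and 566 in liver, and ADIPOQ, the adipokine adiponectin, was at 0.27 to 0.72 FPKM in liver. The FPKM of 15 liver markers summed to between 76508 and 113962 in liver and to between 10.7 and 113 in 5 of the 6 abdominal fat samples. In ND abdominal fat replicate 2 this sum was 4167 FPKM, which is 4.37% of the ND liver mean, with ALB (serum albumin) at 2887 FPKM. Results in abdominal fat are therefore given with and without this sample where it changes them. HFD abdominal fat replicate 1 had the highest summed muscle markers (440 FPKM, against 16.7 to 61.7 in the other 5), ND abdominal fat replicate 1 had 3389 FPKM of IGLL1, an immunoglobulin light chain gene, and ND liver replicate 1 had the highest summed macrophage markers (1295 FPKM, against 416 to 864 in the other 5 livers). The depth of the samples is unknown, because the files hold FPKM with 2 decimals and no counts.

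All 6 genes differed between the tissues, in a fit that did not pair samples by bird. FADS1, FADS2, ELOVL2 and ELOVL5 were higher in liver, and ELOVL1 and ELOVL7 were higher in abdominal fat. The liver and abdominal fat samples did not overlap for any of the 6 genes, a separation found for 61.7% of all genes tested. The call of 4 genes as higher and 2 as lower in liver stands against 16.4% and 62.4% of the 15442 genes tested, and all 6 were also called on ND alone and on HFD alone. The median of all genes was itself -0.52 (log2, liver minus abdominal fat), and this shift depends on the scaling.

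FADS2, the desaturase of the first step, had 112.88, 102.49 and 112.18 FPKM in HFD abdominal fat and 83.62, 177.53 and 70.15 FPKM in ND abdominal fat. In liver it had 427.13, 395.57 and 425.54 FPKM on HFD and 345.31, 442.57 and 339.85 FPKM on ND. Every liver sample was above every abdominal fat sample, and the highest abdominal fat value belonged to ND replicate 2, the sample with liver markers. The difference was 1.89 (log2, standard error 0.19, adjusted p = 2.88e-06, limma).
FADS1, the desaturase that completes arachidonic acid, had 10.21, 10.32 and 11.84 FPKM in HFD abdominal fat and 10.15, 16.26 and 8.94 FPKM in ND abdominal fat. In liver it had 88.50, 92.83 and 90.93 FPKM on HFD and 75.01, 87.40 and 66.00 FPKM on ND. The tissues were far apart, and ND replicate 2 again gave the highest value in abdominal fat. The difference was 2.79 (log2, standard error 0.13, adjusted p = 3.55e-09, limma).

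ELOVL5, which lengthens the first desaturation products, had 40.95, 41.38 and 44.60 FPKM in HFD abdominal fat and 41.34, 47.07 and 41.72 FPKM in ND abdominal fat. In liver it had 174.82, 167.54 and 206.30 FPKM on HFD and 115.52, 115.72 and 157.48 FPKM on ND. Relative to its mean, it was the least variable of the 6 genes across abdominal fat (42.8 ± 2.46 FPKM, SD, n = 6). The difference to liver was 1.81 (log2, standard error 0.10, adjusted p = 1.03e-08, limma).
ELOVL2, the elongase of the last steps toward docosahexaenoic acid, was listed at 0.11, 0 and 0 FPKM in HFD abdominal fat and at 0.06, 2.61 and 0 FPKM in ND abdominal fat. In liver it had 135.64, 142.21 and 103.58 FPKM on HFD and 82.10, 73.40 and 86.83 FPKM on ND. ELOVL2 was thus near 0 in 5 of the 6 abdominal fat samples, and the exception was ND replicate 2. The difference was 6.32 (log2, standard error 0.27, adjusted p = 2.19e-09, limma). It ranged from 6.16 to 6.62 when samples were left out in turn, and it was 8.89 with a pseudocount of 0.1.

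ELOVL1 had 86.65, 105.32 and 117.74 FPKM in HFD abdominal fat and 91.50, 79.30 and 114.23 FPKM in ND abdominal fat. In liver it had 42.11, 55.79 and 45.38 FPKM on HFD and 38.39, 51.76 and 55.55 FPKM on ND. The difference was -1.02 (log2, standard error 0.13, adjusted p = 2.04e-05, limma), against a median of -0.52 over all genes. With median-of-ratios scaling it was -0.36 (adjusted p = 0.0333, limma), and on ND alone it was then -0.21 (adjusted p = 0.346, limma), so that the call on ND rests on the scaling.
ELOVL7 had 9.34, 11.61 and 16.03 FPKM in HFD abdominal fat and 9.10, 11.29 and 23.00 FPKM in ND abdominal fat. In liver it had 0.84, 1.30 and 1.22 FPKM on HFD and 1.5, 0.73 and 1.04 FPKM on ND. Every abdominal fat sample was above every liver sample, and the difference was -2.71 (log2, standard error 0.21, adjusted p = 2.85e-07, limma), against the median of -0.52 over all genes, and between -2.01 and -3.44 over the alternatives other than leaving out samples.

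**Figure D1:**
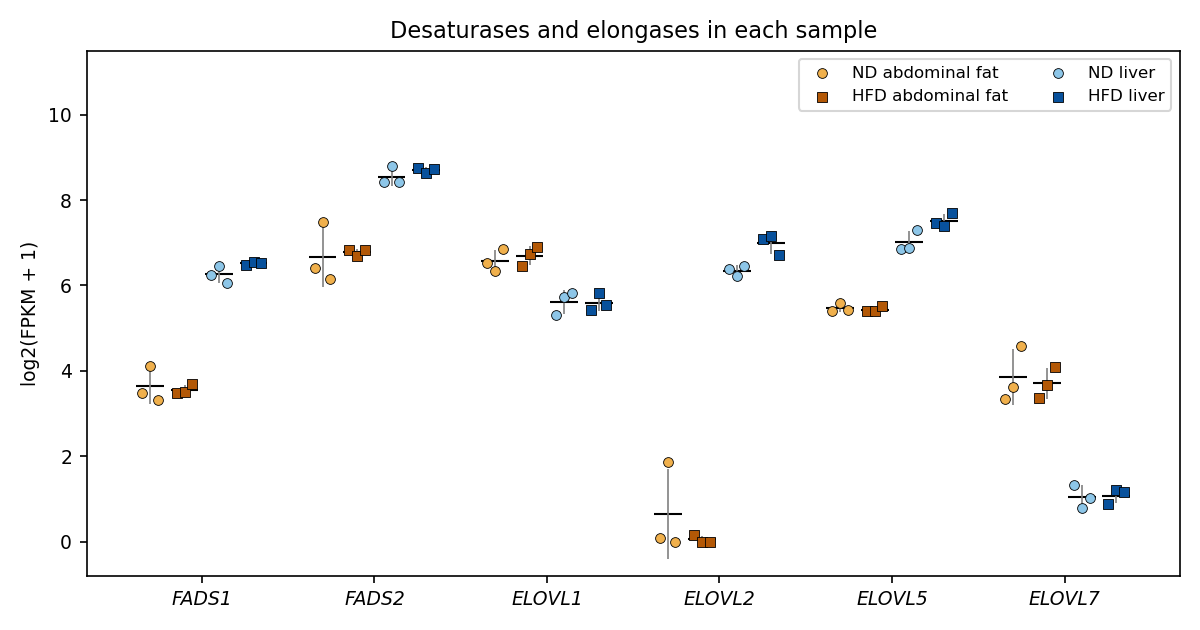
Expression of the 6 genes as log2(FPKM + 1) in each of the 12 samples, with the mean (black line) and SD (grey line) of each group of 3. FADS1, FADS2, ELOVL2 and ELOVL5 lie higher in liver (blue) than in abdominal fat (orange), ELOVL1 and ELOVL7 lie lower, and the raised ELOVL2 point in ND abdominal fat is replicate 2 at 2.61 FPKM.

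The order of the levels differed between the tissues. In abdominal fat FADS2 (110 ± 37.2 FPKM, SD, n = 6) and ELOVL1 (99.1 ± 15.6 FPKM) were at the top, and they did not differ beyond their spread (two-sided exact permutation test paired within samples, p = 0.75, adjusted p = 0.75 over 10 neighbour pairs). FADS2 was above ELOVL1 in 2 of 6 samples, and without ND replicate 2 its mean was the lower one, at 96.3 FPKM beside 103 FPKM for ELOVL1. ELOVL5 came next, then ELOVL7 (13.4 ± 5.32 FPKM) and FADS1 (11.3 ± 2.61 FPKM), which did not differ beyond their spread either (exact p = 0.625, adjusted p = 0.694), and ELOVL2 was last. In liver FADS2 (396 ± 44.1 FPKM, SD, n = 6) led, followed by ELOVL5 (156 ± 35.4 FPKM), ELOVL2 (104 ± 28.9 FPKM), FADS1 (83.4 ± 10.6 FPKM), ELOVL1 (48.2 ± 7.29 FPKM) and ELOVL7 (1.11 ± 0.29 FPKM). ELOVL2 was above FADS1 in 5 of 6 livers, which was within the spread (exact p = 0.125, adjusted p = 0.156). The other 7 neighbour pairs had the order of their means in 6 of 6 samples, which is a description, because the order was set on the same samples.

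The level of FADS2 relative to FADS1 was higher in abdominal fat than in liver. FADS2 exceeded FADS1 by a ratio of 7.85 to 11.1 in abdominal fat and of 4.26 to 5.15 in liver, so the ratios did not overlap. The difference of the log2 ratio, liver minus abdominal fat, was -0.998. This ratio was chosen after the values had been seen and is given as a description. In liver, FADS2 alone made up 46.3% to 57.4% of the summed FPKM of the 6 genes, and in abdominal fat 27.2% to 53.1%, where the highest share was that of ND replicate 2. ELOVL2 stood at 0.502 to 0.849 of the ELOVL5 level in liver.

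Most genes that act with these enzymes were called between the tissues, as were most of all genes tested (16.4% higher and 62.4% lower in liver). The plot of tissue differences by role shows these genes. Among other desaturases and elongases, 6 of 8 genes found had enough expression to be tested, 3 were called higher and 2 lower in liver. ELOVL6, which lengthens palmitate, and FADS6, a desaturase-like gene, were higher in liver by 6.01 and 6.58 (log2, adjusted p = 1.99e-08 and 3.35e-09, limma), while SCD, the stearoyl-CoA desaturase that makes oleate, was not called (0.50, adjusted p = 0.338, limma). SCD passed with median-of-ratios scaling (1.18, adjusted p = 0.0448, limma) and without ND liver replicate 1 (0.97, adjusted p = 0.00435, limma). Of 5 elongation cycle partners, 3 were called higher. Among these were ACACA, which makes malonyl-CoA, and HSD17B12, the ketoacyl-CoA reductase of the cycle (both 1.93). The 2 called lower were ACACB (-3.99) and TECR (-0.74). Of 5 genes listed as electron donors for desaturases, 2 were called higher in liver. These were the cytochrome b5 gene CYB5A (1.42) and the cytochrome b5 reductase gene CYB5R2 (3.93). The 3 called lower were CYB5R3 (-2.95), CYB5R4 (-1.20) and CYB5B (-0.67), beside a median of -0.52 over all genes. Of 8 genes of peroxisomal chain shortening, the route that completes docosahexaenoic acid in mammals, 7 were called higher in liver and 1 lower, and of 14 genes for release and eicosanoid synthesis, 3 were called higher and 10 lower. Over all genes, 2528 were called higher and 9634 lower, and quantile normalization changed this split to 5376 and 5673, median-of-ratios scaling to 4841 and 6199. ELOVL6, FADS6, SCD, ACACA, HSD17B12, CYB5A and CYB5R2 kept their direction under both scalings.

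**Figure D2:**
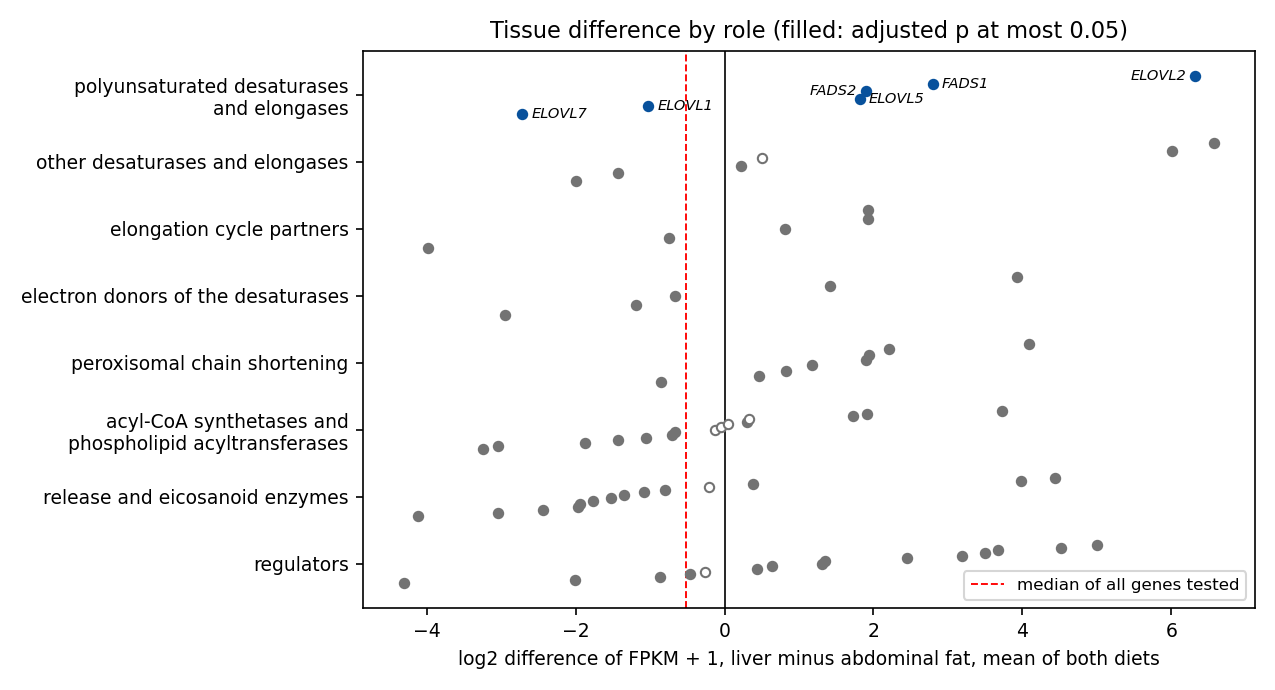
Difference between liver and abdominal fat for each tested gene (1 point each), by role, on the log2(FPKM + 1) scale as the mean of both diets, with filled points at an adjusted p of at most 0.05 (limma). ELOVL2 lies farthest to the right of the 6 genes in the top row, at 6.32, ELOVL7 farthest to the left, at -2.71, and the dashed line is the median of all genes, -0.52.

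In abdominal fat, none of the 6 genes was called between HFD and ND chickens, which does not show that their levels were equal. The diets overlapped for all 6, whereas they did not overlap for 13.5% of the 15412 genes tested. For FADS1 and FADS2 the overlap came from ND replicate 2, and without it every HFD sample was above both remaining ND samples, as for 9.95% of all genes. For FADS1 this was a near tie, with HFD replicate 1 at 10.21 FPKM and ND replicate 1 at 10.15 FPKM. Limma called 0 of the 6 genes, against 0.00649% of all genes (1 gene), and 0 of the 6 had an unadjusted p under 0.05. The log2 fold changes (HFD over ND) were 0.10 for FADS2 (95% interval -0.69 to 0.90), -0.08 for FADS1 (-0.59 to 0.44), 0.12 for ELOVL1 (-0.29 to 0.54), -0.03 for ELOVL5 (-0.25 to 0.18) and -0.14 for ELOVL7 (-0.98 to 0.70). The interval was narrowest for ELOVL5. For ELOVL2 the fold change of -0.60 rested on ND replicate 2, and without this sample the gene was below the limit for testing (a mean of 0.1 FPKM). Without ND replicate 2 the log2 fold change was 0.50 for FADS2 and 0.16 for FADS1, and neither was called.

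ND abdominal fat replicate 2 held the highest FADS1, FADS2, ELOVL2 and ELOVL5 of the abdominal fat samples. These 4 are the genes that were higher in liver. Its ELOVL2 was 3.23% of the ND liver mean, beside 4.37% for the summed liver markers, and its FADS6 was 2.61%. FADS2 in this sample exceeded the mean of the other 5 abdominal fat samples by 21.6% of the ND liver mean, FADS1 by 7.84%, ELOVL5 by 3.91% and ELOVL6 by 5.36%. This excess was above the 4.37% of the liver markers for FADS2, FADS1 and ELOVL6. For ELOVL5, ELOVL2 (3.19%) and FADS6 (2.50%) it was below. The 4.37% is a plain percentage, without the other samples taken off. The cause of these values was not tested.

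**Figure D3:**
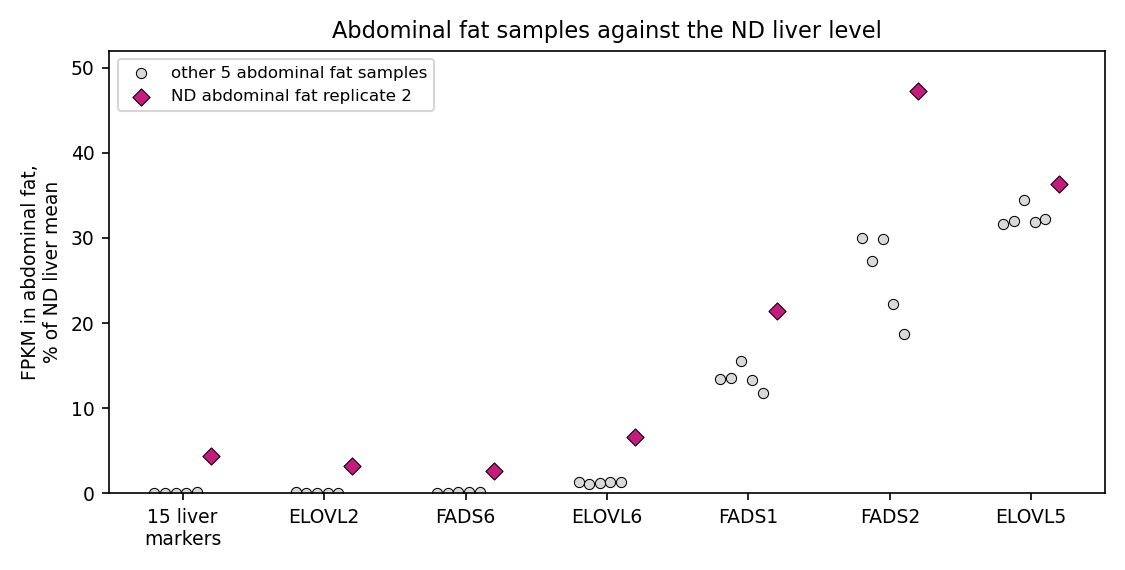
FPKM of the abdominal fat samples as a percentage of the ND liver mean, for the sum of 15 liver markers and for single genes. ND replicate 2 (diamond) lies at 4.37% for the liver markers, 3.23% for ELOVL2 and 47.2% for FADS2, above the other 5 samples for each item.

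In liver, ELOVL2, ELOVL5 and FADS1 were higher in each of the 3 HFD chickens than in each of the 3 ND chickens, but no difference passed the adjustment over all genes. These 3 of 6 genes stand against 14.3% of the 14510 genes tested in liver with every HFD sample above every ND sample. ELOVL2 and ELOVL5 had an unadjusted p under 0.05 with HFD higher, as 9.93% of all genes did. Limma called 0 of the 6 genes and 0% of all genes, and before adjustment 1441 genes were higher and 571 lower in HFD liver at p under 0.05. Counts over all genes in liver rose to 80 higher and 31 lower with a single fit of all 12 samples, which did not call any of the 6 either.

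The HFD livers with 135.64, 142.21 and 103.58 FPKM of ELOVL2 all lay above the ND livers at 82.10, 73.40 and 86.83 FPKM. The log2 fold change was 0.64 (95% interval 0.28 to 1.00, standard error 0.15, unadjusted p = 0.00383, adjusted p = 0.213, limma). It lay between 0.55 and 0.78 when each liver was left out in turn, with an adjusted p of 0.156 to 0.470, and between 0.53 and 0.64 under the other alternatives.
The ELOVL5 fold change was 0.50 (95% interval 0.12 to 0.89, standard error 0.16, unadjusted p = 0.0169, adjusted p = 0.296, limma). Its lowest HFD liver, 167.54 FPKM, was close to its highest ND liver, 157.48 FPKM. With sample weights the fold change was 0.32.
FADS1 showed a fold change of 0.26 (95% interval -0.05 to 0.57, unadjusted p = 0.0862, adjusted p = 0.411, limma). Its HFD livers lay within 88.50 to 92.83 FPKM, and ND replicate 2, at 87.40 FPKM, was just below them. The FADS1 fold change was 0.16 with median-of-ratios scaling and 0.16 without ND replicate 3. For ELOVL2, ELOVL5 and FADS1 the two-sided exact permutation test gave p = 0.1, the smallest that 3 against 3 allows, and an adjusted p of 0.4 over 12 tests.

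FADS2, ELOVL1 and ELOVL7 overlapped between the diets in liver. FADS2 had a log2 fold change of 0.16 (95% interval -0.19 to 0.50, adjusted p = 0.634, limma), and ND replicate 2, at 442.57 FPKM, was the highest of all 6 livers. ELOVL1 was at -0.02 (-0.43 to 0.40) and ELOVL7 at 0.03 (-0.37 to 0.44). The summed FPKM of the 6 genes lay between 855 and 873 in HFD livers, above all ND livers (658 to 772). Among single genes, 14.3% were separated in this way. FADS2, which overlapped, made up 46.3% to 57.4% of the sum, so the sum does not show a rise of each gene. The median log2 fold change of the 6 genes was 0.21, beside 0.07 over all genes tested. Summed adipocyte markers were lower in HFD liver (245 to 360 FPKM) than in ND liver (404 to 566 FPKM), with CIDEA, CIDEC and PNPLA2, which the livers also express, as the largest parts. The markers of this list did not move together. PLIN1 had 10.96, 17.57 and 18.87 FPKM in HFD liver and 4.49, 6.92 and 12.2 FPKM in ND liver. Summed macrophage markers, mostly CD74, reached 416 to 804 FPKM on HFD and 625 to 1295 FPKM on ND. Summed lymphocyte markers reached 72.0 to 118 FPKM on HFD and 85.0 to 600 FPKM on ND. Of the latter, IGLL1 made up 557 and 346 FPKM in ND replicates 1 and 2. The lymphocyte marker CD3D overlapped between the diets (15.56 to 27.37 FPKM on HFD, 12.53 to 19.61 FPKM on ND). The part of these cells in the liver differences was not tested, and in bulk tissue fewer cells of a type and less RNA per cell cannot be told apart.

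**Figure D4:**
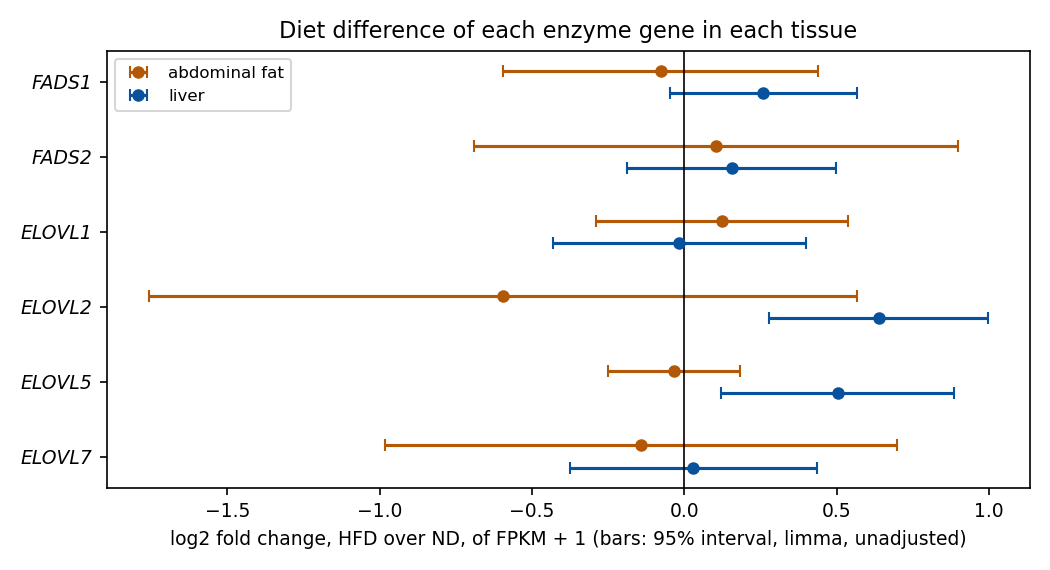
Log2 fold change of HFD over ND for each of the 6 genes in abdominal fat (orange) and liver (blue), with unadjusted 95% intervals from limma. In liver the intervals of ELOVL2 (0.28 to 1.00) and ELOVL5 (0.12 to 0.89) lie above 0, all other intervals include 0, and none of the 12 differences passed the adjustment over all genes.

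Whether the diet effect differed between the tissues was tested with an interaction contrast over the 12 samples together, without pairing by bird. Limma called 0 of the 6 genes, against 0.00648% of all genes (1 gene), and 2 of the 6 had an unadjusted p under 0.05 with the larger effect in liver, as 9.21% of all genes did. For ELOVL5 the diet effect was 0.54 larger in liver than in abdominal fat (log2, standard error 0.19, unadjusted p = 0.0168, adjusted p = 0.343, limma). For ELOVL2 this difference was 1.23 (standard error 0.55, unadjusted p = 0.0461, adjusted p = 0.391, limma), and without ND abdominal fat replicate 2 it was 0.63. For the other 4 genes the adjusted p was 0.595 to 0.968.

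The elongation cycle partners and the electron donors were compared between the diets in liver next. None of 5 elongation cycle partners and none of 5 electron donors was called by limma, and 2 of each had an unadjusted p under 0.05, all with HFD higher. HSD17B12, which reduces the ketoacyl-CoA that an ELOVL enzyme makes, had 109.25, 103.40 and 107.54 FPKM in HFD liver and 54.44, 69.10 and 68.12 FPKM in ND liver. The HFD livers were tightly grouped and far above the ND livers, with a log2 fold change of 0.74 (standard error 0.13, adjusted p = 0.139, limma). At the threshold of the study's methods, applied here to the limma p before adjustment, HSD17B12 passed, as did ACOX2 and HNF4A, which are described below. Over all 14510 genes tested in liver, 58 passed as higher and 27 as lower in HFD. None of the 6 desaturases and elongases passed. The methods do not say whether their p was adjusted. ACACA had 114.74, 146.88 and 136.66 FPKM on HFD and 34.42, 88.28 and 91.01 FPKM on ND (log2 fold change 1.01, adjusted p = 0.314, limma), and ND replicate 1 was far below the others. ACACA without ND replicate 1 gave the lowest of its leave-one-out values, 0.55. The median log2 fold change was 0.44 for the elongation cycle partners and 0.22 for the electron donors, beside 0.07 over all genes. The 0.44 is the value of TECR, a gene at 0.78 to 2.99 FPKM in liver. HSD17B12 and ACACA lay above it, and HACD3 (0.13) and ACACB (-0.02) below.

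CYB5A, a cytochrome b5 gene, had 500.49, 579.91 and 554.77 FPKM in HFD liver and 454.12, 340.98 and 444.96 FPKM in ND liver. CYB5R2 had 118.08, 133.49 and 117.16 FPKM on HFD and 78.91, 108.72 and 96.19 FPKM on ND. Every HFD liver was above every ND liver for both genes, with log2 fold changes of 0.41 and 0.38 (adjusted p = 0.337 and 0.335, limma). With CYB5B, 3 of the 5 electron donors were separated in this way, against 14.3% of all genes. TECR, the last enzyme of the elongation cycle, and CYB5R4 overlapped between the diets, with log2 fold changes of 0.44 and 0.20. In abdominal fat 0 of these 10 genes were called or separated by diet, against 0.00649% called and 13.5% separated among all genes.

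The peroxisomal genes divided in liver. None of 8 was called by limma, and 3 were higher and 1 was lower in every HFD liver than in every ND liver, against 14.3% and 5.82% of all genes. ACOX2, an acyl-CoA oxidase of branched-chain and bile acid intermediates, had 84.17, 78.90 and 82.30 FPKM on HFD and 56.80, 49.76 and 55.99 FPKM on ND (log2 fold change 0.59, adjusted p = 0.160, limma). HSD17B4, the bifunctional enzyme of the peroxisomal spiral, had 90.16, 85.59 and 99.07 FPKM on HFD and 74.50, 48.15 and 77.75 FPKM on ND (log2 fold change 0.48, adjusted p = 0.351, limma). ACAA1, a peroxisomal thiolase, had 122.02, 157.11 and 130.86 FPKM on HFD and 244.22, 176.32 and 185.05 FPKM on ND (log2 fold change -0.55, adjusted p = 0.282, limma). ACAA1 was thus below the ND livers in all 3 HFD livers, and ACOX2 and HSD17B4 were above them. ACOX3, a further acyl-CoA oxidase, overlapped between the diets (0.52).

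**Figure D5:**
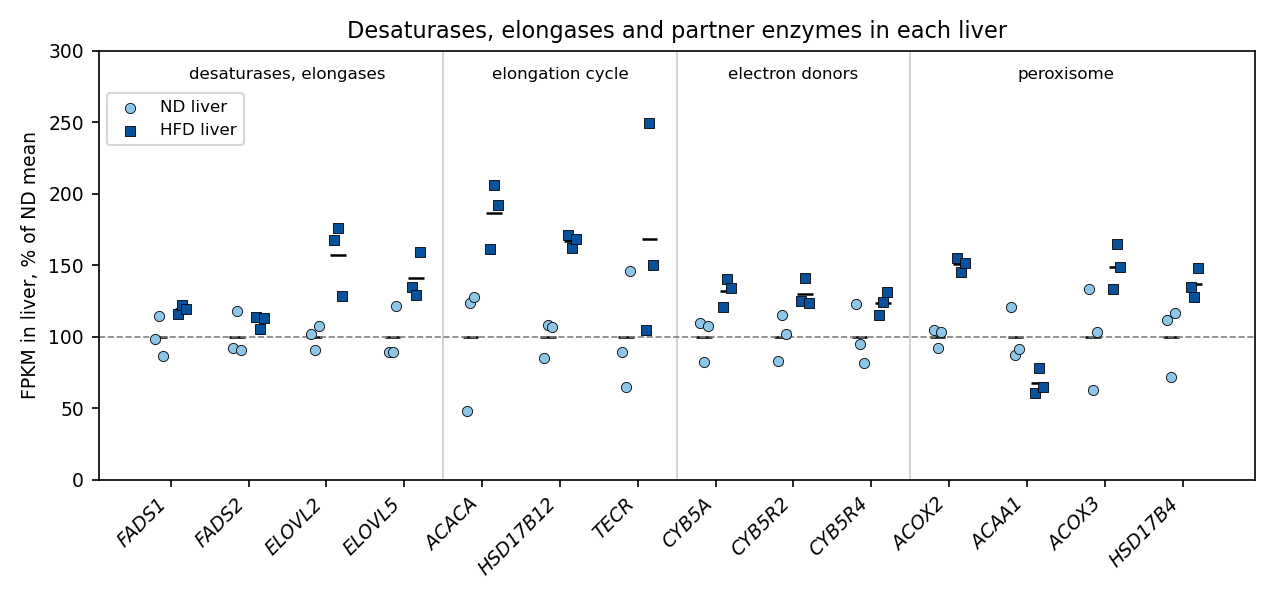
FPKM in each liver as a percentage of the ND mean of the same gene, for 4 of the 6 enzyme genes and for partner enzymes, with the group mean as a black line. The HFD livers (dark squares) lie above all ND livers (light circles) for FADS1, ELOVL2, ELOVL5, ACACA, HSD17B12, CYB5A, CYB5R2, ACOX2 and HSD17B4, and below them for ACAA1, and none of these differences passed the adjustment over all genes. Of all genes tested in liver, 14.3% lay above and 5.82% below in this way. The partners listed were named for their large fold changes between the diets. In liver the diets overlapped for FADS2, ELOVL1 and ELOVL7, and for partners such as TECR, HACD3, CYB5R4 and ACOX3.

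Among the other genes of the pathway, none was called between the diets in either tissue. Of 15 acyl-CoA synthetases and phospholipid acyltransferases tested in liver, 2 were above and 1 was below in every HFD liver, which is near the background of 14.3% and 5.82% of all genes. ACSL5, an acyl-CoA synthetase, had 88.05, 77.47 and 69.59 FPKM on HFD and 21.38, 18.94 and 45.77 FPKM on ND (log2 fold change 1.52, adjusted p = 0.182, limma), and MFSD2A, which carries lysophosphatidylcholine with docosahexaenoic acid into cells, had 22.74, 52.43 and 72.86 FPKM on HFD and 81.75, 137.76 and 79.19 FPKM on ND (-1.10, adjusted p = 0.335, limma). The HFD and ND livers did not overlap for ACSL5 or MFSD2A. Of 14 genes for release and eicosanoid synthesis, 1 was above and 1 was below in every HFD liver, against the same shares of all genes, with PTGES3, a prostaglandin E synthase and cochaperone, at 0.37 and LTC4S, the leukotriene C4 synthase, at -0.94 (log2 fold change, adjusted p = 0.283 and 0.261, limma). PTGDS, a prostaglandin D synthase, overlapped at -0.98.

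Of 15 regulators, 2 were above and 2 below in every HFD liver, against 14.3% and 5.82% of all genes. SCAP, the escort protein of the sterol regulatory element binding proteins, had 103.36, 106.81 and 141.42 FPKM on HFD and 33.47, 48.49 and 16.01 FPKM on ND (log2 fold change 1.93, adjusted p = 0.160, limma). HNF4A, a hepatocyte transcription factor, had 20.83, 18.14 and 27.85 FPKM on HFD and 9.83, 6.08 and 9.10 FPKM on ND (1.32, adjusted p = 0.139, limma). In the single fit of all 12 samples SCAP, HNF4A and ACSL5 passed the threshold (adjusted p = 0.0210, 0.0469 and 0.0469, limma). That fit called 80 genes higher and 31 lower in HFD liver over all genes. NR1H3, the liver X receptor alpha, was at -0.60 with the diets separated, and SREBF2, a sterol-regulated transcription factor, overlapped at 0.57.

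Among the other desaturases and elongases in abdominal fat, SCD and SCD5 lay higher and ELOVL6 and FADS6 lower in every HFD sample, though none was called. SCD had 736.87, 688.94 and 713.18 FPKM on HFD and 357.20, 557.40 and 187.63 FPKM on ND (log2 fold change 1.09, adjusted p = 0.765, limma), and SCD5, another stearoyl-CoA desaturase, had 11.79, 9.99 and 11.18 FPKM on HFD and 8.34, 4.85 and 7.70 FPKM on ND (0.62, adjusted p = 0.765, limma). FADS2 followed this order except for ND replicate 2, the sample with liver markers, and the ratio of FADS2 to SCD was 0.149 to 0.157 in HFD abdominal fat and 0.234 to 0.374 in ND abdominal fat. Thus 4 of the 6 tested genes of this list were separated by diet in abdominal fat, against 13.5% of all genes. FADS6 was among them but near 0, at 0.06, 0.06 and 0.18 FPKM on HFD and 0.25, 3.7 and 0.25 FPKM on ND. ELOVL6 had 6.18, 5.20 and 5.99 FPKM on HFD and 6.37, 31.84 and 6.45 FPKM on ND, so that its log2 fold change of -0.84 came mainly from ND replicate 2. The highest HFD sample for ELOVL6, 6.18 FPKM, was close to the lowest ND sample, 6.37 FPKM. In liver 0 of the 6 tested genes of this list were separated by diet, against 14.3% above and 5.82% below among all genes. ELOVL6 had a log2 fold change of 0.64 in liver (unadjusted p = 0.0468, adjusted p = 0.358, limma), with the diets overlapping.

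Within tissues, the 6 genes varied together to different degrees over the 12 samples. After the tissue mean was taken off log2(FPKM + 1), FADS1 and FADS2 had a Pearson correlation of 0.89, FADS1 and ELOVL2 one of 0.80, and ELOVL5 and ELOVL2 one of 0.48, while ELOVL1 had negative values with FADS1, FADS2 and ELOVL2 (-0.34 to -0.44). These values are a description, because the points share libraries and ND abdominal fat replicate 2 is high for FADS1, FADS2, ELOVL2 and ELOVL5. Among 10758 genes, FADS2 had the pattern most like FADS1. The closest gene was HS6ST2 for FADS2 (0.90), SCHIP1 for ELOVL1 (0.89), SLCO1B1 for ELOVL2 (0.98), DLAT for ELOVL5 (0.97) and TBKBP1 for ELOVL7 (0.93). These correlations have the same limits, and for ELOVL2 the only abdominal fat sample not near 0 was ND replicate 2.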

How the data were processed

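RNA of abdominal fat and liver was sequenced by the study on the BGISEQ-500 platform. The authors deposited FPKM values per gene and sample, rounded to 2 decimals. The submitters' processing notes list HISAT2 2.0.4, Bowtie2 2.2.5 and RSEM 1.2.12 without their roles, and the genome build and annotation are not given in the sources used here. Multi-mapped fragments between related genes may have been shared in a way that cannot be checked. Samples were grouped from their labels. The methods describe 3 birds per diet, and the labels do not say which abdominal fat and liver samples share a bird.

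Diets were compared per tissue with limma 3.58.1 (R 4.3.3) on log2(FPKM + 1), eBayes with trend, two-sided, for genes whose mean reached 0.1 FPKM, and tissues and the interaction in a fit of all 12 samples. The main fit of all 12 samples did not pair abdominal fat and liver by bird. The Benjamini-Hochberg adjustment ran over all genes tested. The fits were tested on simulated data. Exact permutation tests used scipy 1.17.1, and figures matplotlib 3.10.9. The 6 genes were always named, and up to 4 genes per pathway list, those with the largest absolute log2 fold change between the diets in a tissue where their mean was at least 1 FPKM. A few further genes were chosen after their values were seen (FADS6, HACD3, CYB5R3 and the cell markers given by name). For likeness, the gene with the highest correlation over samples was named. The genes and lists were chosen with earlier results of these data known. FADS3, HACD1, HACD2, HACD4, CYB5R1 and LPCAT4 were not analysed here, and some genes of the peroxisomal list are not reported here. Alternatives were another pseudocount, other filters, 2 other scalings, sample weights, a replicate block, a single fit for the diets, the threshold stated in the methods and leaving out each sample.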

Additional observations from a re-analysis of the deposited data

How the results depend on the processing

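Of the 6 genes, 6 were called between the tissues under every alternative run, except on ND with median-of-ratios scaling, where 5 were called (ELOVL1 was not). Between the diets 0 were called in either tissue, and 0 for the interaction, including the fits with a replicate block and those without each replicate in turn. Counts over all genes moved more. In abdominal fat (0 higher and 1 lower in HFD), higher calls became 1 with a pseudocount of 0.1 and 1 with a single fit of all 12 samples. At the threshold of the study's methods, higher calls became 8 and lower calls 6. This threshold is a log2 fold change of 0.5 or more in either direction, applied here with a limma p not above 0.001 before adjustment. Lower calls became 0 with the replicate block, and leaving out single samples gave 0 to 2 higher and 0 to 2 lower. In liver (0 and 0), a pseudocount of 0.1 gave 1 higher and 3 lower, a mean of at least 1 FPKM 2 and 4, sample weights 6 and 6, the single fit 80 and 31 and the threshold of the methods 58 and 27, and leaving out samples gave 0 higher and 0 to 1 lower. Between the tissues, quantile normalization and median-of-ratios scaling moved the median of all genes from -0.52 to -0.01 and -0.08. Calls were then 5376 and 4841 higher and 5673 and 6199 lower for the mean of both diets, 4562 and 4155 higher and 4932 and 5550 lower on ND (2112 and 8941 in the main result), and 4488 and 3967 higher and 4849 and 5103 lower on HFD (2254 and 8323). For the interaction (1 higher, 0 lower), no filter gave 2 higher, median-of-ratios scaling and the replicate block 0, and leaving out samples 0 to 2 higher and 0 to 4 lower. Single genes that changed sign were uncalled, and under settings other than leaving out samples they were near 0. FADS2 in abdominal fat was -0.0042 with sample weights, ELOVL7 in liver was -0.0405 with quantile normalization and -0.024 with median-of-ratios scaling, and the interaction of FADS2 was -0.0913 with median-of-ratios scaling. Leaving out samples gave -0.24 to 0.16 for FADS1, -0.16 to 0.50 for FADS2, -0.0713 to 0.0252 for ELOVL5 and -0.40 to 0.23 for ELOVL7 in abdominal fat, -0.17 to 0.0871 for ELOVL1 and -0.0979 to 0.168 for ELOVL7 in liver, and -0.35 to 0.32 for FADS2 and -0.20 to 0.43 for ELOVL7 in the interaction. The causes were not tested. Same-numbered HFD and ND samples did not deviate together (correlation across genes -0.13 to 0.05). Same-numbered abdominal fat and liver samples of 1 diet had 0.07 to 0.23, and each of the 6 correlated best with its own number, a hint from the data that the numbers may be birds, which the labels do not state. ELOVL2 in abdominal fat had no value at a mean of at least 1 FPKM or without ND replicate 2. Values under about 1 FPKM, such as ELOVL2 in abdominal fat, have unknown depth.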
